A study of Mus musculus with 8 samples.

Results

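Striatal neuron marker genes, 9 in all, were followed across 16 dissections of mouse right fronto-parietal cortex, to read how far the dissections differed in them. The genes were Drd1, Drd2, Ppp1r1b, Adora2a, Penk, Pdyn, Tac1, Rgs9 and Pde10a. They were found by name: every probe whose RefSeq accession maps to one of the 9 symbols was taken, which gave 15 probes for 9 of 29362 features tested. Rgs9 had 4 probes, Drd1, Ppp1r1b and Tac1 had 2 each, and the other 5 genes had 1. The brightest probe stood for a gene, and all 9 genes passed the filter on dim probes. Total RNA came from cortex of the injured side, or of the same side in uninjured animals. The 4 groups of 4 mice were uninjured floxed mice (floxed control), uninjured mice deficient in Il6 made by microglia (Il6-deficient control), and mice of both genotypes after a cryolesion, in which a spot of cortex is killed by cold. A floxed allele is one flanked by sites that Cre recombinase can cut. The Cre line behind the deficiency, the age and sex of the animals and the time after injury are not given in the sources used here. An array carried RNA of 2 animals in different dyes (Cy5 and Cy3), and the 8 arrays closed a loop of 4 sides, each of 2 arrays. No array held injured and uninjured animals of one genotype, so every effect of the cryolesion was estimated through the other genotype. In bulk tissue, fewer cells of a type and less RNA per cell cannot be told apart.

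The striatum lies beneath the cortex and white matter, and most of its neurons are GABAergic projection neurons of a pair of kinds. Neurons of the direct pathway carry the dopamine receptor Drd1 and make the peptides substance P (from Tac1) and dynorphin (from Pdyn). Neurons of the indirect pathway carry the dopamine receptor Drd2 and the adenosine receptor Adora2a and make enkephalin (from Penk). Both kinds share the signalling proteins DARPP-32 (from Ppp1r1b), Rgs9, a regulator that shortens G-protein signals, and Pde10a, which breaks down cyclic nucleotides. Cortex also holds cells that make several of these, among them enkephalin and dynorphin interneurons and deep-layer neurons with DARPP-32, so the 9 are not exclusive to the striatum.

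Upstream sequences are shown for 3 genes that varied together (Drd1, Drd2, Tac1) and for Pdyn, whose level had the lowest correlation with the mean of the other 8 genes (0.535 over 16 animals, group means removed). Each is the 250 bases before the annotated transcript start in RefSeq, build GRCm38.p6, written 5′ to 3′ on the gene's strand, and capitals mark the bases TGACG or its reverse complement CGTCA, the core of the cyclic AMP response element. RefSeq entries were at hand for 6 of the 9 genes, and those of Ppp1r1b, Adora2a and Penk were not used here.
Drd1, chr13:54055659-54055908, minus strand: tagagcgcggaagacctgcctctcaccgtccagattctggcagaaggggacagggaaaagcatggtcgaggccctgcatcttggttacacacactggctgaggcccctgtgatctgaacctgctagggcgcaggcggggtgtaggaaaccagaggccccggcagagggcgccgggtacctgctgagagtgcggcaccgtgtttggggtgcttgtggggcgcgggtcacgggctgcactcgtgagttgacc
Tac1, chr6:7554811-7555060, plus strand: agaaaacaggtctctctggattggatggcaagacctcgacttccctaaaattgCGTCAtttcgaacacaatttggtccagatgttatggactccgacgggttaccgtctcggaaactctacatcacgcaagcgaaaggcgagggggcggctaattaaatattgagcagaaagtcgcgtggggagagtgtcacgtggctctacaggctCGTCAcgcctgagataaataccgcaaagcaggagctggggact
Pdyn, chr2:129699939-129700188, minus strand: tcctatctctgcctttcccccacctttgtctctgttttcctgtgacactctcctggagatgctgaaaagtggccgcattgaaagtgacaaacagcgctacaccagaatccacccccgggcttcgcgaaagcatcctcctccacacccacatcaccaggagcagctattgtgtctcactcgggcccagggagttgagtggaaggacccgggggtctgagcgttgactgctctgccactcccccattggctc
Drd2, chr9:49340153-49340402, plus strand: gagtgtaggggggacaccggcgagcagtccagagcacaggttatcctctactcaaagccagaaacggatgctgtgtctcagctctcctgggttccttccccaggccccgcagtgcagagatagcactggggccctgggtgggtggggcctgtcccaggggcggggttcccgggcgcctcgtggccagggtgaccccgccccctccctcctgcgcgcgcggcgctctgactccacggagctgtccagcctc
Searched on both strands, the Tac1 window held 2 matches to TGACG, and the windows of Drd1, Drd2 and Pdyn held 0. The same letters occur in 17.8% of 32851 RefSeq windows of this length, and the full element TGACGTCA, which contains the core, occurs in 1.55% of them and in 0 of these 4. The GC box GGGCGG, the letters bound by Sp1, was matched 2 times in the Drd2 window and 1 time in that of Tac1, against 32.7% of all windows with a match. The GC content of the windows ran from 51.2% (Tac1) to 68.8% (Drd2). A match describes letters only.

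The channels had 59.2% to 65.9% of their probes well above background, with 0 saturated spots. Cortical identity was plain in every dissection: Slc17a7 and Neurod6, which mark excitatory neurons of the cortex, were well above background in 16 of 16 channels. The injury was plain as well, since the reactive astrocyte gene Gfap rose by 3.50 ± 0.26 (log2, SE; adjusted p = 0.00353 by limma) in floxed animals and by 3.65 ± 0.26 (adjusted p = 0.00344) in Il6-deficient ones. Xist was detected above background in 3 of the 4 uninjured floxed mice, in 1 of the 4 uninjured Il6-deficient mice and in 0 of the 8 injured mice, so sex was not balanced between the groups. The 9 genes themselves were above background in all 16 channels, except Drd2, which was so in 15, the missing one being an injured Il6-deficient animal.

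The dissections differed severalfold in striatal neuron genes, and they differed most among injured animals. Values below are log2 channel intensities after normalization, given for animals 1, 2, 3 and 4 of each group, and fold ranges are the highest over the lowest of 16 animals. Levels are compared between animals within a gene and never between genes, since probes differ in brightness.

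Among the direct-pathway genes, Tac1, the substance P precursor, read 13.29, 12.31, 12.13 and 12.67 across floxed controls, 11.81, 11.32, 11.38 and 12.02 in Il6-deficient controls, 11.12, 9.96, 13.12 and 12.22 in injured floxed animals, and 10.38, 9.75, 12.83 and 12.82 in injured Il6-deficient animals. The injured groups each overlapped both control groups, with 3 animals far below every control and others level with the highest controls. The range over all animals was 11.6-fold. Drd1, the dopamine receptor of this pathway, read 11.65, 10.91, 10.83 and 11.34 across floxed controls, 10.39, 10.03, 10.06 and 10.79 in Il6-deficient controls, 10.52, 9.53, 11.56 and 10.90 in injured floxed animals, and 9.72, 9.36, 11.66 and 11.73 in injured Il6-deficient animals. The same 3 injured animals, floxed animal 2 and Il6-deficient animals 1 and 2, were the lowest, and the range was 5.18-fold. Pdyn, the dynorphin precursor, read 12.48, 11.05, 11.72 and 11.76 across floxed controls, 11.07, 11.17, 11.27 and 11.57 in Il6-deficient controls, 12.75, 12.38, 11.89 and 12.48 in injured floxed animals, and 11.44, 10.46, 11.80 and 12.40 in injured Il6-deficient animals. Pdyn departed from its partners in injured floxed animal 2, where it was high (12.38) while Tac1 (9.96) and Drd1 (9.53) were near the bottom of their own ranges.

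Among the indirect-pathway genes, Adora2a had the widest range of the 9, 14.7-fold. It read 11.57, 11.03, 11.14 and 11.20 across floxed controls, 10.36, 9.98, 9.68 and 10.84 in Il6-deficient controls, 9.14, 8.06, 10.50 and 9.43 in injured floxed animals, and 7.69, 8.78, 11.52 and 11.35 in injured Il6-deficient animals. The floxed controls lay above all Il6-deficient controls and all injured floxed animals, while the injured Il6-deficient group held both the lowest animal and one of the highest. Penk, the enkephalin precursor, read 15.49, 14.16, 14.83 and 15.12 across floxed controls, 13.84, 13.99, 13.76 and 14.67 in Il6-deficient controls, 14.87, 12.74, 14.83 and 15.25 in injured floxed animals, and 13.15, 12.22, 15.32 and 15.35 in injured Il6-deficient animals, a 9.67-fold range. Its lowest animals were again injured floxed animal 2 and injured Il6-deficient animals 1 and 2. Drd2, the dopamine receptor of this pathway, ran from 6.80 to 7.08 across floxed controls, 6.43 to 6.69 in Il6-deficient controls, 6.25 to 6.76 in injured floxed animals and 6.07 to 7.14 in injured Il6-deficient animals. Its range was the narrowest of the 9 at 2.10-fold, on a dim probe that was not well above background in 1 channel. How narrow it is depended on the processing. The SE of the fitted cryolesion effect on Drd2 in floxed animals was 0.306 with the background offset of 50. It was 0.453 with an offset of 16 and 1.01 with the scanner software's processed intensities. For Drd1 these SEs were 0.798, 0.759 and 0.814.

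Of the shared signalling genes, Pde10a read 12.44, 12.28, 11.87 and 12.30 across floxed controls, 11.38, 11.55, 11.48 and 12.05 in Il6-deficient controls, 11.50, 9.998, 12.27 and 11.46 in injured floxed animals, and 10.14, 10.07, 12.47 and 12.42 in injured Il6-deficient animals. Rgs9 read 13.30, 12.57, 12.63 and 13.04 across floxed controls, 12.02, 12.03, 11.86 and 12.32 in Il6-deficient controls, 11.88, 11.35, 13.21 and 12.92 in injured floxed animals, and 11.40, 11.58, 13.56 and 13.30 in injured Il6-deficient animals. Both had the pattern of Tac1 and Drd1, with ranges of 5.56-fold for Pde10a and 4.62-fold for Rgs9. Ppp1r1b, the DARPP-32 gene, read 14.23, 13.74, 13.33 and 13.90 across floxed controls, 13.08, 13.13, 13.45 and 13.74 in Il6-deficient controls, 13.54, 12.98, 14.01 and 14.17 in injured floxed animals, and 14.02, 13.84, 14.14 and 13.95 in injured Il6-deficient animals. On this brightest probe it was level across the 4 injured Il6-deficient animals, including animals 1 and 2 in which Tac1 and Adora2a were lowest. Its whole range was 2.37-fold. On the second Ppp1r1b probe the 4 injured Il6-deficient animals read 9.81, 9.31, 10.15 and 10.19, so animals 1 and 2 were the lower ones there.

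**Figure D1:**
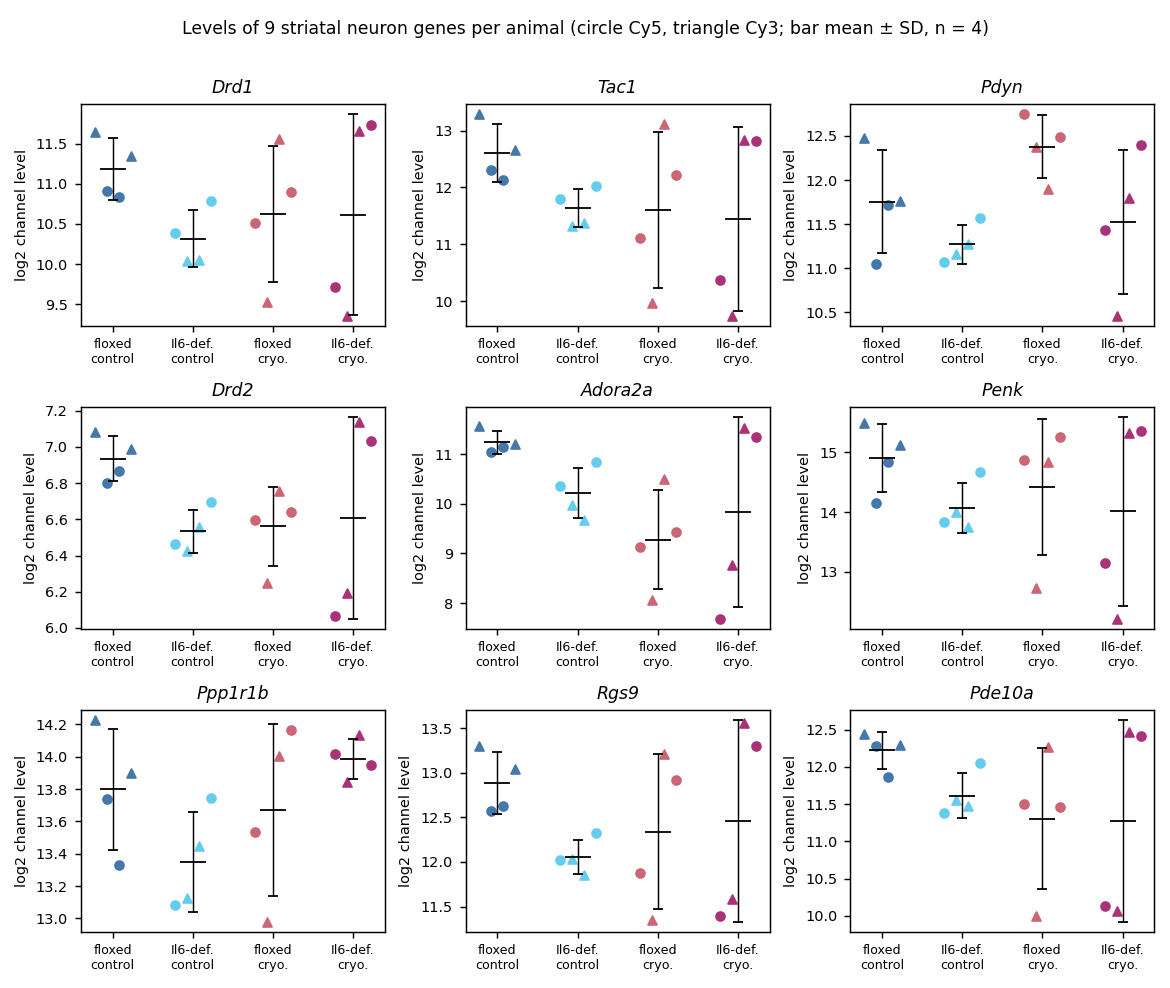
Log2 channel level (y axis) of the 9 genes in each animal, by group (x axis); circles are Cy5 and triangles Cy3 animals, bars are mean ± SD of 4 animals. In the injured Il6-deficient group the animals split into a low and a high pair for Tac1 (10.38 and 9.75 against 12.83 and 12.82) and most other genes. The low pair was on the arrays shared with injured floxed animals and the high pair on those shared with floxed controls. Ppp1r1b, drawn from its brightest probe, stays within 13.84 to 14.14.

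The SD within groups was larger in the injured groups for most of the genes, a difference that was not tested. The median SD over the 9 genes was 0.37 across floxed controls, 0.31 in Il6-deficient controls, 0.87 in injured floxed animals and 1.25 in injured Il6-deficient animals (log2, n = 4 each). Injured Il6-deficient animals had the largest SD of the 4 groups for 8 of 9 genes, and injured floxed animals for Ppp1r1b. Ranked over all 16 animals, injured floxed animal 2 was among the lowest 4 for 8 of 9 genes, injured Il6-deficient animal 2 for 8 and injured Il6-deficient animal 1 for 7. Floxed control 1 was among the highest 4 for 9 of 9, and injured Il6-deficient animals 3 and 4 for 8 of 9 each. Low and high animals were thus found in the same group. The split followed the array layout: the low injured Il6-deficient animals 1 and 2 were those hybridised with injured floxed animals, and the high animals 3 and 4 those hybridised with floxed controls. Animal and array side cannot be told apart there.

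This spread was wide against other genes on the arrays. After the mean of each group was subtracted, the SD over 16 animals was 0.99 for Adora2a, 0.98 for Tac1, 0.92 for Penk, 0.76 for Pde10a, 0.72 for Drd1 and 0.66 for Rgs9, each above the 99th percentile of 29358 features (0.49). Pdyn (0.49) and Ppp1r1b (0.33) were at percentiles 98.97 and 95.04, and Drd2 (0.28, on its dim probe) at 91.32, while the median of all features was 0.14. Second probes followed the brightest ones: over 16 animals they correlated at 0.983 for Drd1, 0.988 for Tac1 and 0.925 for Ppp1r1b. For Ppp1r1b the SD among injured Il6-deficient animals was 0.41 on the second probe and 0.12 on the brightest. Of the other Rgs9 probes, those for the main transcript correlated at 0.994 and 0.964, and the one for a variant transcript, dim at 6.24 to 6.80, at 0.578.

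The array ratios compare 2 animals on the same spots. A ratio equals the difference between the levels of its 2 animals, so the ratios restate those levels within arrays and are no separate evidence. Injured Il6-deficient animal 1 over injured floxed animal 3 had a median log2 ratio of -1.81 over the 9 genes and reached -2.81 for Adora2a and -2.74 for Tac1, with Ppp1r1b at 0.010. Injured floxed animal 4 exceeded injured Il6-deficient animal 2 for 9 of 9 genes, by up to 3.03 for Penk. Injured Il6-deficient animals 3 and 4, in contrast, were the higher ones on their arrays. Floxed control 3 over injured Il6-deficient animal 3 had 0 of 9 genes higher and a median of -0.60, and injured Il6-deficient animal 4 over floxed control 4 had 9 of 9 higher and a median of 0.155. Il6-deficient control 4 over injured floxed animal 2 had 8 of 9 genes higher, up to 2.78 for Adora2a, and the exception was Pdyn at -0.81.

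In uninjured animals the fit called no difference between the genotypes, while the levels of 5 genes did not overlap on their brightest probes. All 9 genes had a lower mean in Il6-deficient controls than in floxed controls, with a median difference of -0.83 (Il6-deficient minus floxed, log2), against 0.013 over all features. Adora2a averaged 11.24 ± 0.23 in floxed and 10.22 ± 0.50 in Il6-deficient controls (SD, n = 4 each), Tac1 12.60 ± 0.51 and 11.63 ± 0.34, and Drd1 11.18 ± 0.38 and 10.32 ± 0.36. For Drd1, Drd2, Adora2a, Tac1 and Rgs9, 5 of the 9, the 4 animals of each genotype did not overlap, against 4.01% of all features. These 5 correlated with one another at 0.842 to 0.965 over the 16 animals. Neither the 5 nor the 9 are thus independent observations, and their counts cannot be read as such. For these 5 the exact permutation test of the levels (two-sided, 70 splits) gave p = 0.0286, the smallest it can give with 4 against 4. These p-values are unadjusted, 36 such comparisons were made, and the test was added after seeing the data. They hold for the brightest probes. On the second Drd1 probe the genotypes overlapped (8.677 to 9.72 in floxed, 8.123 to 8.908 in Il6-deficient controls). Another Rgs9 probe overlapped too (10.269 to 11.125 and 9.664 to 10.314), as did the dim one for a variant transcript. The second Tac1 probe did not overlap (10.146 to 11.43 and 9.407 to 10.043). Nor did the remaining Rgs9 probe (12.428 to 13.267 and 11.885 to 12.296). On the arrays that paired the control groups directly, Il6-deficient control 1 was lower than floxed control 1 for 9 of 9 genes, with a median log2 ratio of -1.27. Floxed control 2 was higher than Il6-deficient control 2 for 8 of 9, with a median of 0.61, the exception being Pdyn at -0.12. The share of animals with Xist above background differed between these groups as well (3 of 4 against 1 of 4), and its part in the difference was not tested on the levels.

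In the fit over all arrays, an effect rests on the arrays of one side together with the path around the other 3 sides of the loop, and the fitted difference between the control groups had a median of -0.02 over the 9 genes. Its values ran from -0.43 ± 0.37 (SE) for Ppp1r1b to 0.12 ± 0.95 for Tac1, with adjusted p from 0.983 to 0.999 (limma, Benjamini-Hochberg over 29362 features). For Adora2a the fitted value was 0.065 ± 0.94, against a level difference of -1.02, and it was -0.22 with sex as a covariate. Of the 9 genes 0 were called, as were 0% of all features, and 0 of the 9 had an unadjusted p under 0.05. The separate-channel fit and the fit with replicate number as a block also called 0 of 9. The levels are compared across arrays and the ratios within them, and no fit over all features called the difference between the control groups.

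After the cryolesion, floxed animals had 0 of 9 genes called by limma, against 3.05% of all features, and 0 with an unadjusted p under 0.05. Fitted differences ran from -0.40 ± 1.09 for Adora2a to 1.05 ± 0.48 for Pdyn (adjusted p = 0.294, the lowest of the 9; limma), with a median of 0.32 against -0.01 over all features. Mean levels differed in sign from the fit for 6 genes. Adora2a averaged 11.24 ± 0.23 in controls and 9.28 ± 1.00 after injury (SD, n = 4 each) and Drd2 6.94 ± 0.13 and 6.56 ± 0.22, and these 2 genes had no overlap between the groups, against 14.8% of features (exact permutation p = 0.0286 for each, unadjusted). Tac1 averaged 12.60 ± 0.51 and 11.60 ± 1.36, with overlap. Pdyn averaged 11.75 ± 0.58 and 12.38 ± 0.36, the one gene with a higher mean in injured floxed animals.

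In Il6-deficient animals the cryolesion also gave 0 of 9 genes called, against 2.73% of all features (limma), and 0 with an unadjusted p under 0.05. The fitted differences ran from -1.05 ± 1.10 for Tac1 to 0.45 ± 0.48 for Pdyn, with a median of -0.28 and 7 of 9 below 0, whereas mean levels were lower for 4 of 9, with a median difference of 0.073. Ppp1r1b averaged 13.35 ± 0.31 in controls and 13.98 ± 0.12 in injured animals (SD, n = 4 each), and was the 1 gene whose groups did not overlap, against 17.3% of features (exact permutation p = 0.0286, unadjusted). Its fitted difference was 0.40 ± 0.43 (adjusted p = 0.676, limma). On the second Ppp1r1b probe the groups overlapped, at 8.867 to 9.626 in controls and 9.307 to 10.189 in injured animals. For Penk the means were 14.07 ± 0.42 and 14.01 ± 1.57, and for Adora2a 10.22 ± 0.50 and 9.84 ± 1.90, so that the SD after injury was several times that before it.

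Between genotypes after the cryolesion, 0 of 9 genes were called (limma; 0% of all features) and 0 had groups without overlap, against 4.46% of features. Fitted values were lower in Il6-deficient animals for 8 of 9 genes, with a median of -0.75, whereas mean levels were lower for 5 of 9, with a median difference of -0.012. Pdyn had the lowest unadjusted p, 0.0551, at -0.96 ± 0.42 (adjusted p = 0.584, limma), and Penk the lowest estimate at -1.34 ± 0.87. The 95% interval for Pdyn ran from -1.96 to 0.028 and that for Tac1 from -3.49 to 1.00. The interaction of genotype and cryolesion was called for 0 of 9 (0% of all features), with a median of -0.62 and adjusted p of 1.00 for each. Standard errors were large: for the cryolesion effects they ran from 0.31 (Drd2) to 1.10 (Tac1), against a median of 0.12 over all features, and Adora2a and Tac1 lay at percentile 99.97 of all features.

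**Figure D2:**
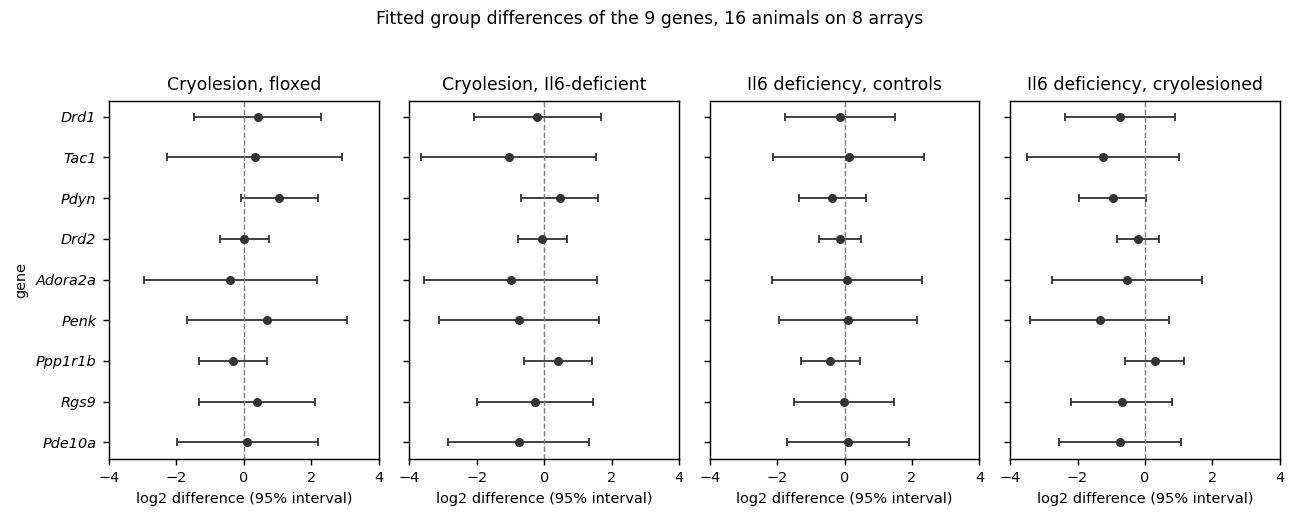
Fitted log2 differences (x axis) of the 9 genes (y axis) in 4 comparisons, with 95% intervals from limma; the dashed line is 0. Each interval includes 0, and those of Adora2a and Tac1 are the widest.

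Most of the 9 genes varied together from animal to animal. Of the 36 pairs, 24 correlated with an adjusted p under 0.05 over 16 animals (Pearson's r, permutation test with 100000 resamples, adjusted over 36 pairs), and 26 did by Spearman's rho. The 21 pairs among Drd1, Drd2, Adora2a, Penk, Tac1, Rgs9 and Pde10a, a subset chosen after the values were seen, had r from 0.756 to 0.965 and rho from 0.753 to 0.959, with adjusted permutation p at most 0.0017. Direct- and indirect-pathway genes were not separate: Drd1 correlated with Drd2 at 0.937 and with Tac1 at 0.965. The lowest r of the 21 pairs was 0.632 when each pair left out the 2 animals farthest from the median of its first-listed gene. The animals left out could thus differ between pairs. The lowest r was 0.422 (Adora2a with Penk) without the 3 lowest animals, an alternative chosen after seeing the data, where 28 of 36 pairs passed. After the group means were subtracted, 29 of 36 pairs passed, and across the 8 array ratios 21 did (exact permutation test). Animals on the same array share its spots and hybridization, so the 16 levels are not fully independent.

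On the brightest probes, Ppp1r1b and Pdyn correlated with the rest among uninjured animals and less closely among injured ones. In the 8 uninjured animals 35 of 36 pairs passed (exact permutation test, adjusted over 36 pairs), Ppp1r1b correlated with Drd1 at 0.861 and with Pde10a at 0.910, and Pdyn with Penk at 0.924. In the 8 injured animals 20 of 36 pairs passed, with Ppp1r1b and Drd1 at 0.540, Pdyn and Drd1 at 0.436, and Ppp1r1b and Pdyn at -0.263. The difference between the correlations was not tested. The second Ppp1r1b probe, lower in injured Il6-deficient animals 1 and 2 than in 3 and 4, was not used in these correlations. Group means were not subtracted here, and all 9 genes had a lower mean in Il6-deficient than in floxed controls. Both sets of 8 contain 4 animals of each genotype. Over all 16 animals Ppp1r1b passed in 2 of its 8 pairs (r from 0.232 to 0.615) and Pdyn in 1 of 8 (r from 0.0877 to 0.604).

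**Figure D3:**
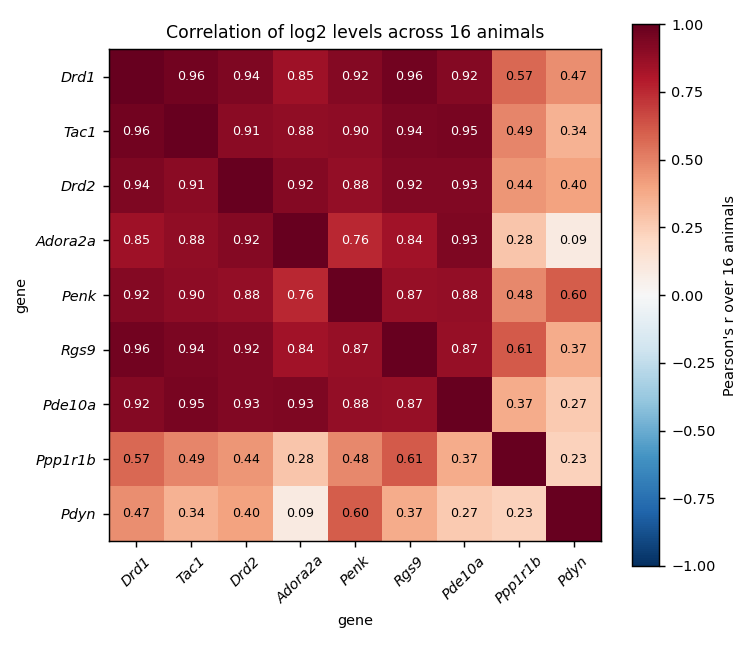
Pearson's r between log2 levels of the 9 genes over 16 animals, from -1 (blue) to 1 (red), with both axes listing the genes. The block of 7 genes from Drd1 to Pde10a holds r from 0.756 up, and the rows of Ppp1r1b and Pdyn lie below 0.62.

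The 10 genes most like the 9 across animals included 4 of the listed striatal projection neuron genes (Gpr6, Rarb, Adcy5 and Gnal) and 1 listed interneuron gene (Slc5a7), and 5 genes on none of the lists. With group means removed, the gene correlating highest with the mean of the 9 was Dach1 (r = 0.971 over 16 animals), a transcription cofactor, followed by Gpr6 (0.968), a receptor of indirect-pathway neurons, Rarb (0.966), a retinoic acid receptor of striatal neurons, Adcy5 (0.963), the main striatal adenylyl cyclase, and Gnal (0.961), the G protein that couples Drd1 and Adora2a to it. Six3os1 (0.961), Serpina9 (0.960), Slc35d3 (0.959), Slc5a7 (0.959), the choline transporter of cholinergic neurons, and Crabp1 (0.957), a retinoic acid binding protein, complete the 10. A wide spread was part of the choice (SD at or above the 90th percentile of all features). Levels ran from 7.07 to 10.30 for Dach1 and from 7.26 to 10.64 for Serpina9. Ranges were narrower for others, among them Adcy5 (11.07 to 12.51) and Six3os1 (5.94 to 7.34). The lowest animal was injured floxed animal 2 or injured Il6-deficient animal 1 or 2 for each of the 10. The 10 were chosen by their correlation with the 9 over these same animals, so sharing the lowest animals is largely built into the choice. Over the 8 array ratios r was between 0.868 (Gnal) and 0.992 (Slc5a7).

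Among lists of other genes, a list of 28 further striatal projection neuron genes had a median r of 0.908 with the mean of the 9, and 25 of the 28 exceeded 0.8, against 0.94% of 29349 other features with a median of -0.03. Rxrg (levels 8.25 to 12.52), a retinoid receptor of striatal projection neurons, ranged more widely than any of the 9. Rgs4, which cortex also makes, was at -0.0996. Cholinergic interneuron genes followed too, with Slc18a3 at 0.885, Lhx8 at 0.921 and Chat at 0.837. The dopamine neuron genes of the same list were mixed, with Th at 0.755 and Slc18a2 at 0.247. The dopamine transporter Slc6a3, a gene of midbrain dopamine neurons, was at -0.0166 and well above background in 9 of 16 channels. As descriptions, these correlations share the arrays and animals of the 9 genes. The lists were chosen with earlier results of these data known, so the share above 0.8 is no independent evidence. None of the 28 or of the 7 interneuron and dopamine neuron genes was called in any contrast (limma).

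Markers of other regions did not follow as closely. The median r was 0.594 for 9 myelin genes, with Cnp the highest at 0.712, and 0.477 for 10 choroid plexus and ependymal genes. That list was divided. Clic6 (0.802) and the ependymal genes Rsph1 (0.752), Tmem212 (0.699), Ccdc153 (0.689) and Foxj1 (0.640) lay above its median. The choroid plexus genes Ttr (0.315), Kl (0.155), Kcnj13 (0.0965), Slc4a5 (0.0913) and Folr1 (-0.019) lay below it. The median r was 0.183 for thalamic, 0.0965 for hippocampal, 0.191 for claustrum and -0.0635 for meningeal genes. Cortical excitatory neuron genes ran the other way with a median of -0.439, Neurod2 at -0.759, Nrgn at -0.752 and Cux2 at -0.746 being the lowest. Foxp2 (0.825) and Tle4 (0.811), made by deep-layer cortical neurons, went with the 9. Foxp2 is made by striatal projection neurons as well. Over the 8 array ratios Foxp2 was at 0.784 and Tle4 at only 0.464. General neuron genes had a median of -0.404. The 14 cortical inhibitory neuron genes had a median of -0.0495, with Vip at -0.687 and Lhx6 at -0.621 the lowest. The highest were Slc32a1, the vesicular GABA transporter, at 0.689, Gad2 at 0.648 and Gad1 at 0.543. These highest genes are shared by GABAergic neurons, those of the striatum included, and do not mark cortical interneurons alone. Among the reactive astrocyte genes Osmr was at -0.666 and Gfap at -0.453, with a list median of -0.332. The part of tissue composition in the levels of the 9 was not tested.

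**Figure D4:**
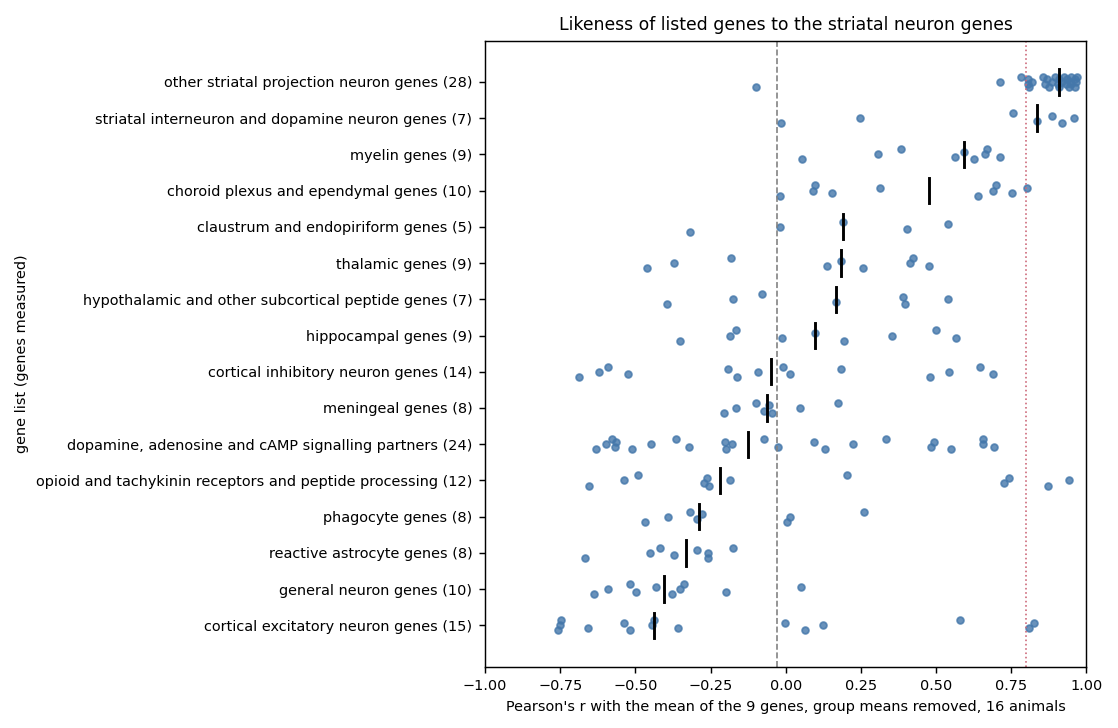
Pearson's r (x axis) of each listed gene with the mean of the 9 genes over 16 animals after group means were removed, by gene list (y axis, number of genes in brackets); black bars are list medians, the dashed line the median of all other features (-0.03) and the dotted line 0.8. Of the 28 other striatal projection neuron genes 25 lie beyond 0.8, and cortical excitatory and general neuron genes lie mostly below 0.

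Set beside the injury genes, the striatal levels had no common direction in injured animals. The mean level of the 9 genes, relative to the average of all animals, ran from 0.19 to 0.93 in floxed controls, -0.40 to 0.17 in Il6-deficient controls, -1.10 to 0.56 in injured floxed animals and -1.21 to 0.81 in injured Il6-deficient animals. The 15 cortical excitatory genes ran from 0.034 to 0.12, 0.26 to 0.39, -0.39 to -0.19 and -0.26 to 0.077 in the same order. In each list the 2 control groups did not overlap, with the cortical mean higher and the striatal mean lower in Il6-deficient controls. For the 9 genes the gap was narrow, from 0.191 in the lowest floxed to 0.175 in the highest Il6-deficient control. Cortical inhibitory genes did not overlap either (-0.267 to 0.151 in floxed, 0.157 to 0.247 in Il6-deficient controls). The same held for the other striatal projection neuron genes, while most of the remaining lists overlapped. These list differences were not tested. Of the 15 cortical genes, 3 fell after injury in floxed animals, against 3.05% of all features called in either direction: Camk2a (-0.96 ± 0.15, adjusted p = 0.0273), Lamp5 (-1.23 ± 0.22, adjusted p = 0.0391) and Tbr1 (-0.89 ± 0.18, adjusted p = 0.0488) (limma). In Il6-deficient animals Etv1 (-1.19 ± 0.19, adjusted p = 0.0319), Lamp5 (-1.49 ± 0.22, adjusted p = 0.0269) and Tbr1 (-1.07 ± 0.18, adjusted p = 0.0327) fell, 3 of 15 as well, against 2.73% of all features (limma).

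**Figure D5:**
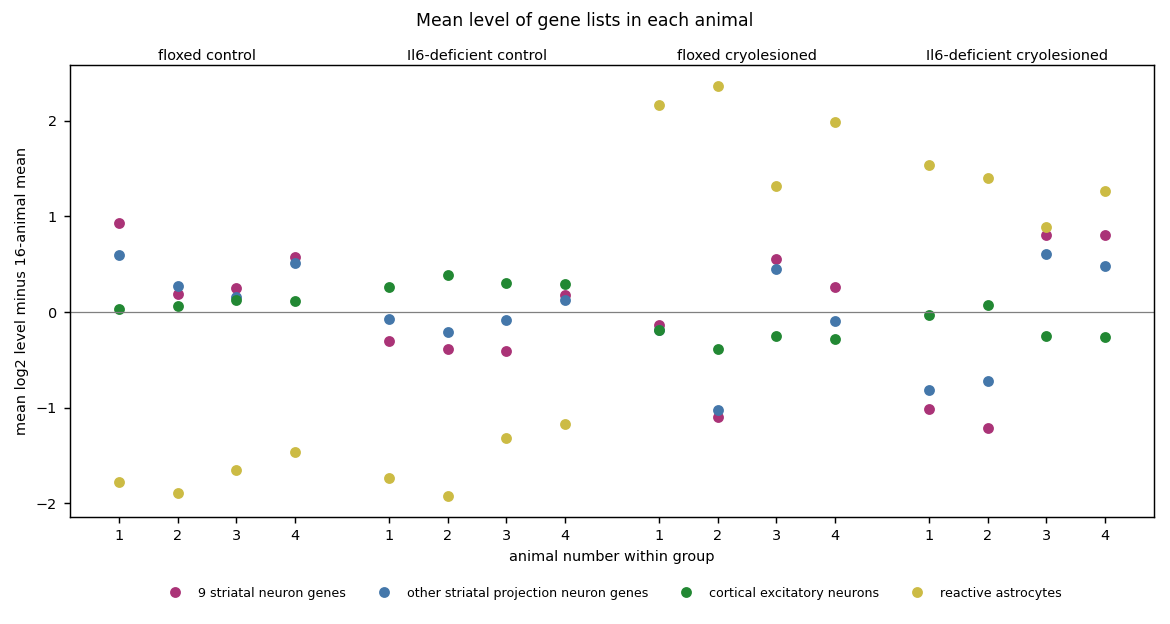
Mean log2 level of a gene list minus its average over all 16 animals (y axis) for each animal (x axis, numbered within its group); colours are 4 gene lists. The 9 striatal genes and the other striatal projection neuron genes move together, from -1.21 to 0.93 for the 9, while reactive astrocyte genes separate injured from uninjured animals.

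Few of the genes that act with the 9 followed them. Of 24 partners in dopamine, adenosine and cyclic AMP signalling, 0 correlated above 0.8, with a median r of -0.126; they ran from Adcy9, an adenylyl cyclase, at -0.630 and Adora1, an inhibitory adenosine receptor, at -0.577 to Gnb5, the G protein subunit that binds Rgs9, at 0.658 and Pde7b, a cyclic AMP phosphodiesterase, at 0.693. Gnai1, an inhibitory G protein subunit, was the 1 of 24 called, lower after injury in Il6-deficient animals (-0.80 ± 0.11, adjusted p = 0.0185, limma), against 2.73% of all features called in that contrast. Of 12 opioid and tachykinin receptors and peptide-processing genes, 2 exceeded 0.8: Tacr1, the substance P receptor (0.942), and Mme, which degrades enkephalin (0.873). The dynorphin receptor Oprk1 was at 0.742. Scg5, a chaperone of prohormone cleavage, was the 1 of 12 called, lower after injury in Il6-deficient animals (-0.79 ± 0.15, adjusted p = 0.0481, limma), in the same contrast with 2.73% of all features called.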

How the data were processed

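Scanner files of 8 Agilent 2-colour arrays were used. The file headers name Agilent Feature Extraction 10.7.3.1 as their source. They hold deposited median intensities of each spot and its local background in both channels, not normalized; the submitters' processing notes name the same software. The authors' deposited value table of log2 ratios served as an alternative, as did the scanner software's processed intensities. The column medians of that table were -0.0045 to 0.0050, and its columns rose with the loess ratios (r 0.931 to 0.963, slopes 1.17 to 1.39), so direction and centring are known and the exact scaling is not. The log10 ratios of red over green, deposited in the scanner files, were used only to check that direction. Median signals were corrected with normexp (offset 50), normalized by loess within arrays (control and outlier spots at weight 0) and averaged by probe. Probes well above background in at least 4 of 16 channels were kept (37352 of 56605), 1 probe per gene, the brightest, giving 29362 features, named through RefSeq accessions of assembly GRCm38.p6. The limma package (3.58.1; R 4.3.3) fitted the ratios on 3 coefficients for the groups plus an intercept for dye; adjusted p is Benjamini-Hochberg over all features, called under 0.05. Levels are log2 channel values after loess and Aquantile. Permutation tests were run in R (levels between groups) and in Python with numpy (correlations). Genes named outside the 9 are list members called in a contrast or of particular likeness: the 10 most alike were, among named genes with an SD at or above the 90th percentile, those with the highest Pearson's r to the mean of the 9 after removing group means; others were picked after their values were seen. The members and gene lists were chosen with earlier results of these data known. The labels call the 4 animals of a group biological replicates. Replicate numbers shared no animal or batch in the labels, and same-numbered animals deviated together in 10 of 24 pairs only (correlation over 0.1), so they were not paired. All arrays came from 1 slide and 1 scan. The number of arrays limits the precision. The fit was tested on simulated data.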

Additional observations from a re-analysis of the deposited data

Results flagged for a closer look

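Penk in injured floxed animal 2, at a log2 level of 12.738, lay far below the other 3 animals of its group (14.83 to 15.25), by more of the group's whole range than Dixon's 95% critical value for 4 samples. It was 1 of 36 groups of 4 animals tested over the 9 genes, and chance gives about 1 in 20 such groups. The same animal was among the lowest 4 of 16 for 8 of the 9 genes.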

How the results depend on the processing

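Under the other settings tried (normalization, filter, probe choice, model and left-out arrays), 0 of the 9 genes were called in any of the 5 contrasts, with adjusted p from 0.0594 to 1.00 (limma). The sign of the uncalled differences did depend on the setting; the cause was not tested. The replicate numbers pair no animals, and with the replicate number as a block 0 of 9 genes were called in each contrast. This fit and the exact permutation of the mean levels, added after seeing the data, use the same level differences. For the cryolesion in floxed animals they turned Drd1 (-0.557), Drd2 (-0.375 and -0.374), Penk (-0.478), Tac1 (-0.996), Rgs9 (-0.544 and -0.543) and Pde10a (-0.916). For that in Il6-deficient animals they turned Drd1 (0.298), Drd2 (0.0727 and 0.073) and Rgs9 (0.402), and for genotype in controls Adora2a (-1.02), Penk (-0.833 and -0.834), Tac1 (-0.966 and -0.967) and Pde10a (-0.609). For genotype after injury they turned Drd2 (0.0474 and 0.047), Adora2a (0.555) and Rgs9 (0.12 and 0.119). The block also turned the interaction of Drd1 (0.855), Drd2 (0.448), Adora2a (1.57), Penk (0.421), Tac1 (0.807), Rgs9 (0.946) and Pde10a (0.577). The separate-channel fit turned, in the same order of contrasts, Drd1 (-0.35), Drd2 (-0.292), Penk (-0.227), Tac1 (-0.716), Rgs9 (-0.343) and Pde10a (-0.698); Drd1 (0.19), Drd2 (0.0453) and Rgs9 (0.257); Adora2a (-0.788), Penk (-0.634), Tac1 (-0.734) and Pde10a (-0.455); Adora2a (0.324); and Drd1 (0.54), Drd2 (0.338), Adora2a (1.11), Penk (0.0232), Tac1 (0.343), Rgs9 (0.601) and Pde10a (0.27). Sex as a covariate turned the cryolesion effect in floxed animals of Drd2 (-0.119), Tac1 (-0.207) and Pde10a (-0.283), and genotype in controls of Adora2a (-0.224), Tac1 (-0.141) and Pde10a (-0.0838). Median centring turned genotype in controls of Drd1 (0.0265) and Rgs9 (0.0914), and processed intensities that of Drd2 (0.165).

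Leaving out an array gave these ranges where a sign turned. Cryolesion in floxed animals: Drd1 -0.204 to 1.28, Drd2 -0.212 to 0.326, Ppp1r1b -0.724 to 0.129, Adora2a -1.52 to 0.777, Penk -0.0375 to 1.8, Tac1 -0.527 to 1.41, Rgs9 -0.159 to 1.14 and Pde10a -0.618 to 1.1. In Il6-deficient animals: Drd1 -0.828 to 0.655, Drd2 -0.282 to 0.257, Ppp1r1b -0.00483 to 0.848, Adora2a -1.63 to 0.183, Penk -1.79 to 0.352, Pdyn -0.144 to 0.903, Tac1 -1.89 to 0.0447, Rgs9 -0.85 to 0.471 and Pde10a -1.41 to 0.234. Genotype in controls: Drd1 -0.56 to 0.783, Drd2 -0.299 to 0.197, Ppp1r1b -0.649 to 0.1, Adora2a -0.524 to 0.993, Penk -0.451 to 1.66, Pdyn -0.855 to 0.526, Tac1 -0.426 to 1.37, Rgs9 -0.391 to 0.844 and Pde10a -0.384 to 1.04. Genotype after injury: Drd1 -1.18 to 0.122, Drd2 -0.367 to 0.127, Adora2a -1.12 to 1.15, Rgs9 -1.06 to 0.0694 and Pde10a -1.25 to 0.334. The interaction: Drd1 -1.84 to 0.541, Drd2 -0.521 to 0.381, Adora2a -1.83 to 1.64, Pdyn -1.79 to 0.306, Tac1 -3.03 to 0.183, Rgs9 -1.82 to 0.339 and Pde10a -2.1 to 0.585. The number of correlated pairs stayed between 20 and 35 of 36 over the alternatives, 3 of which were chosen after seeing the data (control animals alone, injured animals alone, and without the 3 lowest animals), and the median SD within groups changed by less than 1.5 times. The calls over all features changed more: the cryolesion in floxed animals gave 358 with median centring, 405 with processed intensities, 4766 with the separate-channel fit and 5164 with the block, against 896. In Il6-deficient animals these were 358, 326, 3029 and 3267, against 803. The standard errors of the 9 genes, 0.31 to 1.10 for the cryolesion effects, limit what 8 arrays can call.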

Other observations

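Genes that ran opposite to the 9 striatal genes were looked up after the values were seen. With group means removed, and among named genes with an SD at or above the 90th percentile, the lowest correlations with their mean over 16 animals were those of Mapk12 (-0.909), Zyx (-0.843), Fxyd5 (-0.807), Gabbr2 (-0.806), a GABA-B receptor subunit, and Iqsec3 (-0.798). Over the 8 array ratios these were -0.666, -0.509, -0.265, -0.821 and -0.855. Zyx and Fxyd5 were highest in injured floxed animal 2, and Gabbr2 and Iqsec3 in injured Il6-deficient animal 2, both among the animals lowest in striatal genes. As these genes were chosen by their correlation over the same animals, this is largely built into the choice.

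Ttr, a choroid plexus gene, had the widest range among the listed genes, from 6.27 to 14.37 on the log2 scale, and correlated with the mean of the 9 at 0.315.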
